A study of Mus musculus with 48 samples.

Results

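The genes described here are 9 regulators and surface markers of skeletal muscle formation: the myogenic regulatory factors Myod1, Myog and Myf6, the myocyte enhancer factors Mef2a, Mef2c and Mef2d, and the satellite cell genes Pax7, Cdh15 and Sdc4. They were listed by symbol and looked up in the raw count table of the series, where 9 of 9 were present among 14125 genes. After a filter on low counts, 12592 genes were tested, and 9 of the 9 listed genes were among them. Myogenic regulatory factors are basic helix-loop-helix transcription factors that pair with E proteins on a short DNA motif, the E-box, and MEF2 factors are partners that act with them on muscle genes. Satellite cells are the stem cells of muscle, lie between a fibre and its basement membrane, and are marked in mice by the transcription factor Pax7. In adult muscle the regulatory factors are also made in fibre nuclei, and myogenin in particular is known to return when a fibre loses its nerve supply.

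RNA came from mixed gastrocnemius, a calf muscle, of male C57BL6J mice that were treated for 2 weeks. The Cort_ATGLi mice (n = 14) drank 100 ug/ml corticosterone, the main glucocorticoid hormone of mice, and ate chow with 571 mg/kg atglistatin, an inhibitor of the lipase ATGL. The Cort_CON mice (n = 14) drank corticosterone and ate the control diet, and 9 of them were labelled diabetic and 5 nondiabetic. The EtOH_ATGLi mice (n = 10) drank the vehicle, 1% ethanol, and ate atglistatin, and the EtOH_CON mice (n = 10) drank the vehicle and ate the control diet. Mice outside Cort_CON were labelled nondiabetic. The labels do not say if ethanol was in the corticosterone water too, and both agents were given by mouth rather than to muscle alone. Each library carries glucose and insulin values of its own and was taken as 1 mouse, which the labels do not state; p-values measure the spread between these libraries.

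Levels are given in CPM, a gene's count relative to the TMM-scaled total of its library, read from transcript ends and not scaled by gene length, so levels were compared between groups and not between genes. Total counts ran from 10453888 to 24034481 per library, and in 47 of 48 libraries each deposited count was even. The highest total was that of EtOH_ATGLi p13, the library that also held odd counts, so it may not be on the scale of the others. All 10 fibre markers were measured, with a summed level between 79439 and 154070 CPM in each library. Mean correlation with the other libraries of the group was lowest for EtOH_CON p01 (0.953) and Cort_ATGLi p41 (0.954). Among the 9 genes, p41 was the highest Cort_ATGLi library for 5 and Cort_CON p45 the highest of its group for 5, and both were the lowest of their groups for Mef2c. Group comparisons and pairs of the 9 genes that turn on these libraries are given with and without them.

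Corticosterone changed this set in both directions on each diet. In Cort_ATGLi against EtOH_ATGLi, 4 of the 9 genes rose (Myod1, Myog, Cdh15 and Sdc4) and 2 fell (Mef2c and Pax7), at an edgeR adjusted p under 0.05. In that comparison 30% of all tested genes were called, 15% higher and 15% lower. In Cort_CON against EtOH_CON, 3 of 9 rose (Myf6, Cdh15 and Sdc4) and 2 fell (Mef2c and Pax7), where 38.4% of all tested genes were called, 18.9% higher and 19.5% lower. The median log2 fold change of the 9 was 0.31 on atglistatin and 0.40 on the control diet, against medians of all tested genes of -0.0016 and -0.0011. The counts rest on few genes, so they are read gene by gene here.

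**Figure D1:**
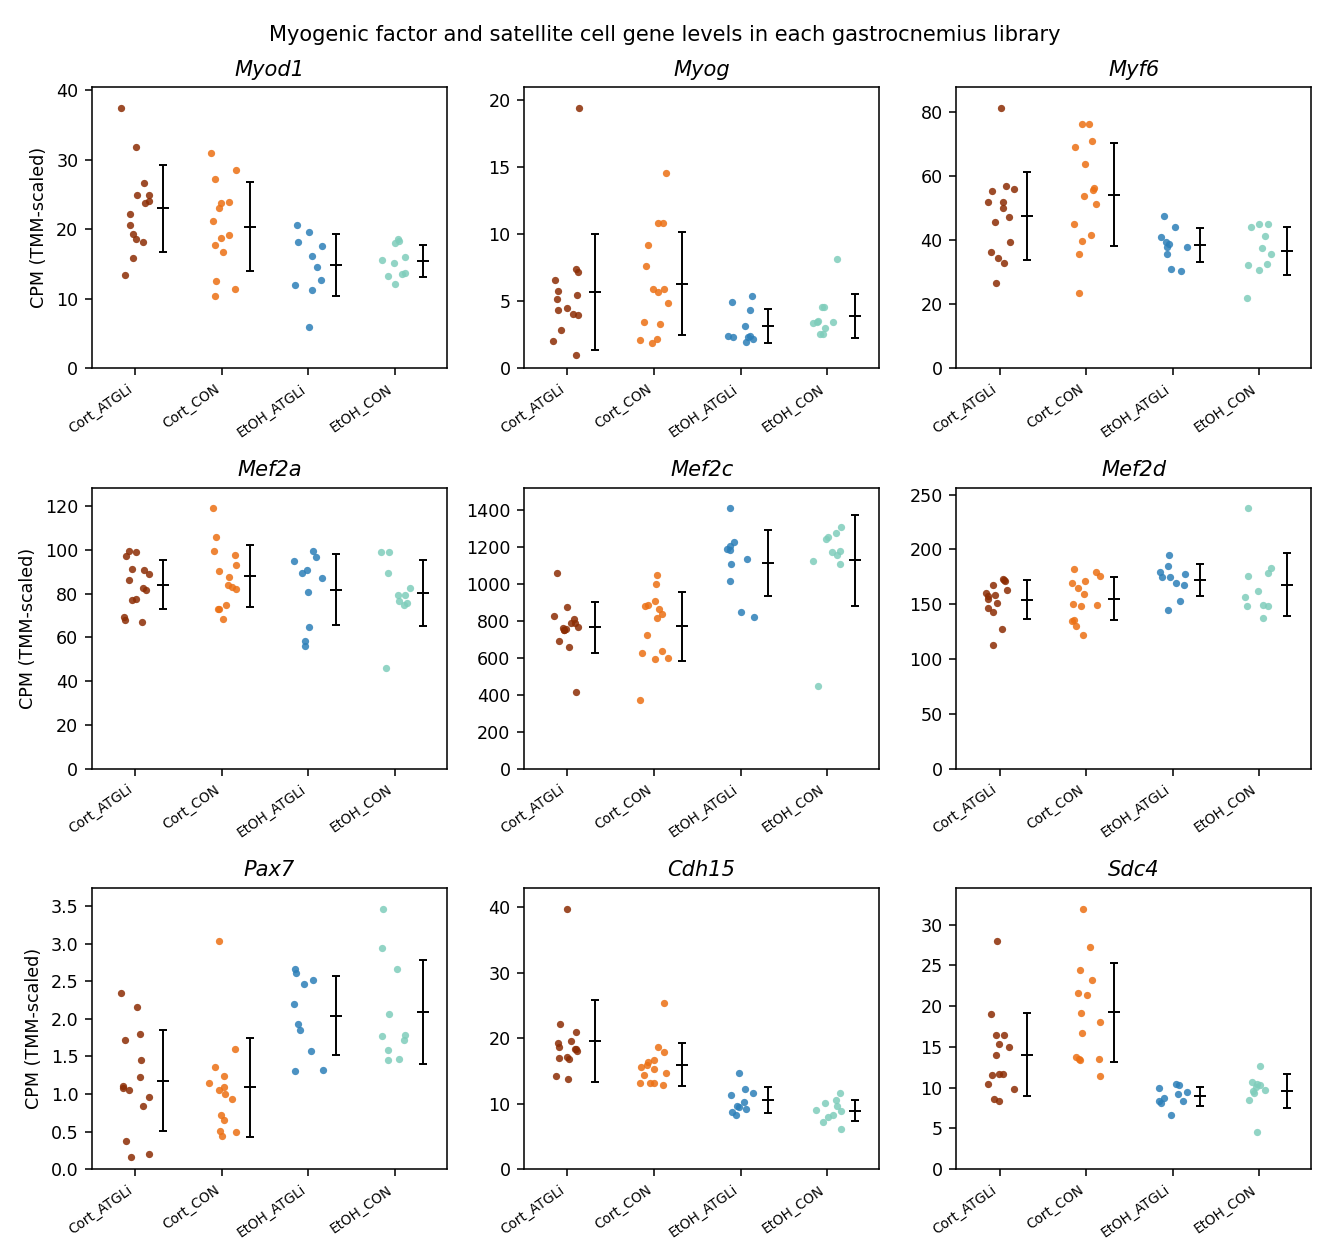
CPM of the 9 genes in each library (points), by group, with the mean and SD of the group (black bars); each vertical axis is linear and starts at 0. Cdh15 and Sdc4 stood higher and Mef2c and Pax7 lower in the Cort_ATGLi and Cort_CON groups than in the EtOH_ATGLi and EtOH_CON groups, and single high points at 19.4 CPM for Myog and 39.7 CPM for Cdh15 are Cort_ATGLi p41.

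The promoters of 4 of the genes that changed are shown because they are the sequence on which myogenic factors and the glucocorticoid receptor would be looked for first. Each is the 250 bases upstream of the RefSeq start on GRCm38.p6, written 5′ to 3′ on the gene's own strand. Of the 9 genes, 7 matched an entry, and Myod1 and Myf6 did not. By the GENCODE positions given below, the windows of Cdh15, Sdc4 and Pax7 lie inside the gene, past its outermost start. The Myog window runs a few bases past that start. The bases before the outermost starts of Cdh15, Sdc4 and Pax7 were not searched. Capitals mark the E-box CANNTG or a loose form of the MEF2 motif, CTANNNNTA. Both motifs were searched on both strands, as were the glucocorticoid response element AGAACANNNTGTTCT and its half-site AGAACA, which lies inside it. Myog is the window chr1:134289754-134290003 (plus strand), Cdh15 chr8:122848124-122848373 (plus strand), Sdc4 chr2:164443189-164443438 (minus strand) and Pax7 chr4:139832969-139833218 (minus strand).
Myog: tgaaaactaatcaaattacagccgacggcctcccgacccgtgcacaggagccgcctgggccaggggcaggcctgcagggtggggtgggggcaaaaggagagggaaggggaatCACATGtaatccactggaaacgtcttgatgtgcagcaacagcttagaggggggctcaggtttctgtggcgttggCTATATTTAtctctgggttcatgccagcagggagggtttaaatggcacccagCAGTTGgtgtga
Cdh15: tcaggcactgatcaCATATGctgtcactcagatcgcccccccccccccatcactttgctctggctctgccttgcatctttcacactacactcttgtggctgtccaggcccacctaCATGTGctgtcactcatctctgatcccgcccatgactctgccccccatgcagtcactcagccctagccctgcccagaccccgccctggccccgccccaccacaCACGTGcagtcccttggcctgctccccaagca
Sdc4: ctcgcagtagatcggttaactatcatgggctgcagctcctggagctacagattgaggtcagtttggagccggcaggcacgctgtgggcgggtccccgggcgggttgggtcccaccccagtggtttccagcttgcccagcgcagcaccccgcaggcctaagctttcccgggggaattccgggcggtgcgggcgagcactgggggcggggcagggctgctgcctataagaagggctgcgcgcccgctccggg
Pax7: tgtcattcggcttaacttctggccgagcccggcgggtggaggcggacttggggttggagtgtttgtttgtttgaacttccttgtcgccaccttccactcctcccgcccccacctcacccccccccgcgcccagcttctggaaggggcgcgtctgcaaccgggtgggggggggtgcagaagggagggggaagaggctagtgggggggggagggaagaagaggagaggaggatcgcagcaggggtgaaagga

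The Myog window held 2 E-boxes, CAGTTG at 12 and CACATG at 138 bases before the start, and the loose MEF2 match CTATATTTA at 64. Cdh15 held 3 E-boxes, CACGTG at 32, CATGTG at 135 and CATATG at 236 bases before the start, and no loose MEF2 match. The windows of Sdc4 and Pax7 held none of these motifs. Of 32851 promoters of the same length, 66.2% held an E-box, 19.0% the loose MEF2 motif, 16.1% the half-site and 0.00913% the full glucocorticoid response element, so an E-box is the common case. Neither the full element nor the half-site was in these 4 windows. Mef2c has 3 RefSeq starts, and the window chr13:83573357-83573606 (plus strand) held the half-site on the other strand, TGTTCT, at 197 bases before the start, with an E-box at 245 and a loose MEF2 match at 191. Its window chr13:83503784-83504033 held 2 E-boxes, and the windows of Mef2a and Mef2d held none of the 4 motifs. A match is a string of letters and not a bound site, and a missing match says nothing of sites elsewhere.

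Myod1 (chromosome 7, 46376474 to 46379099, GRCm38) encodes MyoD, the factor that commits cells to the muscle lineage. In Cort_ATGLi its lowest, median and highest levels were 13.4, 23.1 and 37.5 CPM, against 5.92, 15.3 and 20.6 CPM in EtOH_ATGLi. In Cort_CON they were 10.4, 20.2 and 31.0 CPM, against 12.1, 15.4 and 18.6 CPM in EtOH_CON. The groups overlapped on both diets, with 8 of 14 Cort_ATGLi libraries and 9 of 14 Cort_CON libraries above the highest library of their vehicle group. The log2 fold change was 0.64 on atglistatin (SE 0.17, edgeR adjusted p = 0.00265), and 13 of 14 Cort_ATGLi libraries lay above the EtOH_ATGLi mean. On the control diet it was 0.40 (SE 0.17, edgeR adjusted p = 0.051), with 11 of 14 Cort_CON libraries above the EtOH_CON mean, 2 below the lowest EtOH_CON library and 9 above the highest. The call on the control diet turned on the setting: it was made by DESeq2 (0.40, adjusted p = 0.0367), in a fit of only those groups by edgeR (0.40, adjusted p = 0.0372) and, by edgeR, without p09 of EtOH_CON (0.43, adjusted p = 0.0481) or without p27, p35 or p45 of Cort_CON (0.44, 0.45 and 0.44; adjusted p = 0.0343, 0.024 and 0.0297).

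Myog (chromosome 1, 134289989 to 134292548) encodes myogenin, which drives the last steps of muscle differentiation. It ran from 0.965 through a median of 4.82 to 19.4 CPM in Cort_ATGLi, against 1.94, 2.42 and 5.36 CPM in EtOH_ATGLi. In Cort_CON it ran from 1.87 through 5.79 to 14.6 CPM, against 2.53, 3.45 and 8.14 CPM in EtOH_CON. The corticosterone groups were the more scattered, with coefficients of variation of 76.6% in Cort_ATGLi and 61.2% in Cort_CON, against 40.1% in EtOH_ATGLi and 41.8% in EtOH_CON. The log2 fold change was 0.88 on atglistatin (SE 0.34, edgeR adjusted p = 0.0446) and 0.70 on the control diet (SE 0.33, edgeR adjusted p = 0.0915).

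Both Myog values leaned on single libraries. Cort_ATGLi p41 stood at 19.4 CPM, with the next library at 7.40 CPM, and without p41 the log2 fold change on atglistatin was 0.56 (edgeR adjusted p = 0.162). The call was lost in 14 of 24 fits that each left out 1 library, where adjusted p ran from 0.0203 to 0.162. EtOH_CON p01 stood at 8.14 CPM, with the next at 4.60 CPM, and without p01 the control diet value was 0.88 and passed (edgeR adjusted p = 0.0374). Without p01, p41 and Cort_CON p45 together, the log2 fold change was 0.57 on atglistatin (edgeR adjusted p = 0.114) and 0.72 on the control diet (edgeR adjusted p = 0.0379).

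Myf6 (chromosome 10, 107492853 to 107494737, minus strand) encodes MRF4, in rodents the myogenic factor most tied to mature fibres. Its lowest, median and highest levels were 26.8, 48.6 and 81.4 CPM in Cort_ATGLi, against 30.6, 38.5 and 47.7 CPM in EtOH_ATGLi. They were 23.6, 54.8 and 76.5 CPM in Cort_CON, against 22.0, 36.6 and 45.3 CPM in EtOH_CON. In both corticosterone groups the range reached higher, with 7 of 14 Cort_ATGLi and 9 of 14 Cort_CON libraries above their vehicle group. On atglistatin it also reached lower, with 1 Cort_ATGLi library below the lowest EtOH_ATGLi library. On the control diet the log2 fold change was 0.57 (SE 0.15, edgeR adjusted p = 0.00228), and it passed in each of 24 fits without 1 library. On atglistatin it was 0.31 (SE 0.15, edgeR adjusted p = 0.117). Myf6 was called on the control diet and Myod1 and Myog on atglistatin, but no difference between diets was shown: the interaction was -0.26 for Myf6 (SE 0.21), 0.24 for Myod1 (SE 0.23) and 0.18 for Myog (SE 0.47), with edgeR adjusted p of 0.999 for each.

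**Figure D2:**
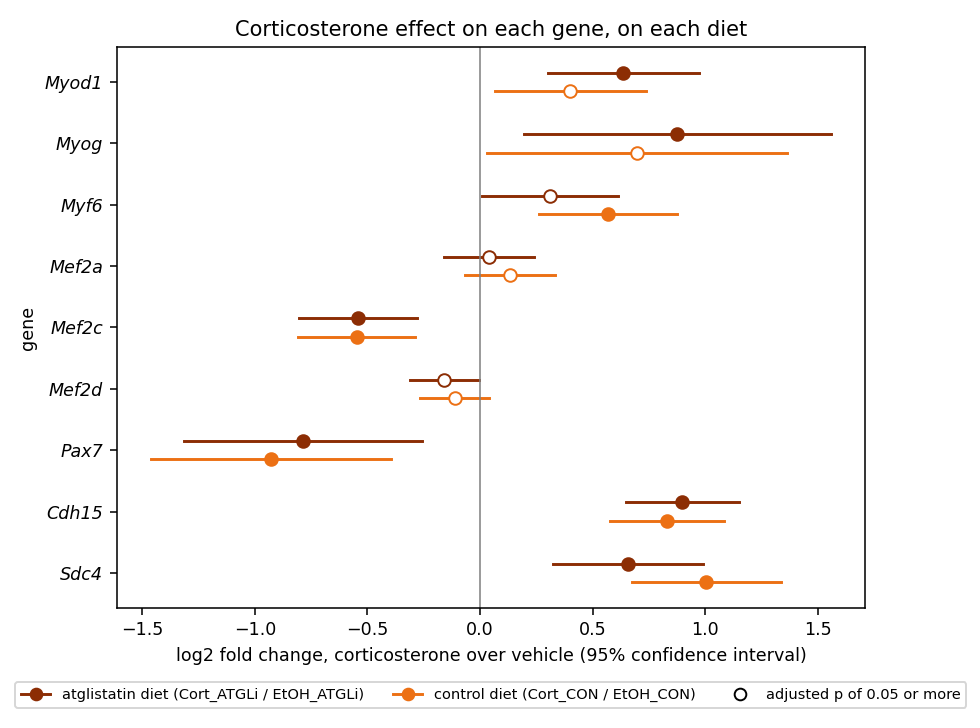
Log2 fold change of corticosterone over vehicle for each gene on the atglistatin diet (Cort_ATGLi over EtOH_ATGLi) and on the control diet (Cort_CON over EtOH_CON), with 95% confidence intervals; open points had an edgeR adjusted p of 0.05 or more. The intervals of the diets overlapped for each of the 9 genes, and Mef2c, with -0.54 and -0.55, had nearly the same value on both.

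The MEF2 factors are MADS-box proteins that bind an AT-rich motif, and Mef2c, the member most tied to muscle and heart, fell on both diets. Mef2c (chromosome 13, 83504034 to 83667080) ran from 417 through a median of 764 to 1059 CPM in Cort_ATGLi, against 821, 1160 and 1410 CPM in EtOH_ATGLi. It ran from 370.5 through 826 to 1051 CPM in Cort_CON, against 449, 1177 and 1312 CPM in EtOH_CON. All 14 Cort_ATGLi and all 14 Cort_CON libraries lay below the mean of their vehicle group, and 11 of the Cort_ATGLi libraries lay below the lowest EtOH_ATGLi library. In EtOH_CON the range was stretched by p01, at 449 CPM with the next library at 1110 CPM. The log2 fold change was -0.54 on atglistatin (SE 0.13, edgeR adjusted p = 0.000935) and -0.55 on the control diet (SE 0.13, edgeR adjusted p = 0.000573). Without p01, p41 and p45 these were -0.49 (edgeR adjusted p = 8e-06) and -0.59 (edgeR adjusted p = 2.1e-07).

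Mef2a (chromosome 7, 67231163 to 67372858, minus strand), a family member also made in most other tissues, was not called on either diet. Its lowest, median and highest levels were 67.1, 84.5 and 99.3 CPM in Cort_ATGLi, against 56.2, 88.2 and 99.3 CPM in EtOH_ATGLi. They were 68.2, 85.7 and 119 CPM in Cort_CON, against 45.9, 79.4 and 99.1 CPM in EtOH_CON. The groups overlapped almost fully, and the log2 fold change was 0.04 on atglistatin (95% interval -0.16 to 0.24) and 0.13 on the control diet (95% interval -0.07 to 0.33). Without p01, p41 and p45 the control diet value was 0.02 (edgeR adjusted p = 0.87).

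Mef2d (chromosome 3, 88142372 to 88172086) was lower with corticosterone by amounts that did not pass on either diet alone. It ran from 112 through 158 to 173 CPM in Cort_ATGLi, against 145, 175 and 195 CPM in EtOH_ATGLi, and 12 of 14 Cort_ATGLi libraries lay below the EtOH_ATGLi mean. In Cort_CON it ran from 122 through 155 to 182 CPM, against 137, 159 and 237 CPM in EtOH_CON, where the 237 CPM was p01. The groups overlapped on both diets, with log2 fold changes of -0.16 on atglistatin (SE 0.08, edgeR adjusted p = 0.113) and -0.11 on the control diet (SE 0.08, edgeR adjusted p = 0.251). Without p01 the Mef2d value on the control diet was -0.05 (edgeR adjusted p = 0.66). Both Mef2a and Mef2d overlap other counted genes, Mef2a the genes Lysmd4 (opposite strand) and Gm44667 (same strand), and Mef2d the antisense gene 1700113A16Rik. The sources used here give no strand setting for the counting, so reads of these neighbours and of Mef2a and Mef2d cannot be told apart.

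Pax7 (chromosome 4, 139737062 to 139833528, minus strand) was lower in corticosterone muscle on both diets. Its lowest, median and highest levels were 0.159, 1.09 and 2.34 CPM in Cort_ATGLi, against 1.30, 2.06 and 2.66 CPM in EtOH_ATGLi. They were 0.438, 1.03 and 3.04 CPM in Cort_CON, against 1.45, 1.78 and 3.46 CPM in EtOH_CON. The groups overlapped, with 9 of 14 Cort_ATGLi and 12 of 14 Cort_CON libraries below the lowest library of their vehicle group. Pax7 was counted in each library, on 2 to 34 counts in Cort_ATGLi, 4 to 36 in Cort_CON, 18 to 64 in EtOH_ATGLi and 20 to 56 in EtOH_CON, so a single library's value is coarse. Pax7 fell by 0.79 on the log2 scale on atglistatin (SE 0.26, edgeR adjusted p = 0.0188) and by 0.93 on the control diet (SE 0.27, edgeR adjusted p = 0.00392), which is 58.0% and 52.5% of the vehicle level. With the diabetic Cort_CON mice left out, which leaves 5, the control diet value was -0.87 (edgeR adjusted p = 0.0996). In whole muscle, fewer satellite cells and less Pax7 RNA per cell cannot be told apart.

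Cdh15 and Sdc4, which encode surface proteins, were higher with corticosterone on both diets. Cdh15 (chromosome 8, 122847966 to 122867397) encodes M-cadherin, which holds satellite cells to their fibre. It ran from 13.8 through a median of 18.4 to 39.7 CPM in Cort_ATGLi, against 8.33, 9.94 and 14.6 CPM in EtOH_ATGLi. In Cort_CON it ran from 12.9 through 15.5 to 25.3 CPM, against 6.18, 8.96 and 11.6 CPM in EtOH_CON. Cort_CON and EtOH_CON did not overlap, as was so for 4.71% of all tested genes, and on atglistatin, where 3.45% of all tested genes did not overlap, 12 of 14 Cort_ATGLi libraries lay above the highest EtOH_ATGLi library. Cdh15 rose by a log2 fold change of 0.90 on atglistatin (SE 0.13, edgeR adjusted p = 7.17e-08), or 1.86-fold, and of 0.83 on the control diet (SE 0.13, edgeR adjusted p = 2.9e-07), or 1.78-fold. Without p01, p41 and p45 these were 0.78 (edgeR adjusted p = 1.34e-09) and 0.74 (edgeR adjusted p = 9.67e-09).

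Sdc4 (chromosome 2, 164424247 to 164443887, minus strand) encodes syndecan-4, a heparan sulfate proteoglycan of satellite cells that many other cell types also carry. Its lowest, median and highest levels were 8.42, 12.9 and 27.9 CPM in Cort_ATGLi, against 6.64, 8.93 and 10.5 CPM in EtOH_ATGLi. They were 11.5, 18.6 and 31.9 CPM in Cort_CON, against 4.54, 9.88 and 12.6 CPM in EtOH_CON. On atglistatin 11 of 14 Cort_ATGLi libraries lay above the vehicle group, and on the control diet 13 of 14 Cort_CON libraries did. Sdc4 rose by a log2 fold change of 0.66 on atglistatin (SE 0.17, edgeR adjusted p = 0.00169), or 1.58-fold, and of 1.01 on the control diet (SE 0.17, edgeR adjusted p = 2.17e-06), or 2.01-fold. The difference between the diets was -0.35 (SE 0.23) and did not pass the interaction test (edgeR adjusted p = 0.994).

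Markers of several cell types were called in the same comparisons. There, 30% of all tested genes were called on atglistatin (15% higher, 15% lower) and 38.4% on the control diet (18.9% higher, 19.5% lower). The summed level of the 7 measured satellite cell markers of 9 listed ran from 31.9 to 81.3 CPM in Cort_ATGLi and 36.3 to 69.2 CPM in Cort_CON, against 28.3 to 35.1 CPM in EtOH_ATGLi and 28.8 to 34.5 CPM in EtOH_CON, and Calcr and Megf10 were not tested. The sum holds Pax7, Cdh15 and Sdc4 themselves, so it is not a measure apart from the 9 genes. Of these 7 markers, 2 rose and 2 fell on atglistatin, and 3 rose and 3 fell on the control diet. In that list Cdh15 and Sdc4 were higher on both diets while Pax7 and Vcam1 were lower on both. Of 10 markers of fibro-adipogenic progenitors, the connective tissue cells between fibres, 9 fell and 0 rose on each diet, with a summed level of 512 to 727 CPM in Cort_ATGLi and 461 to 961 CPM in Cort_CON, against 675 to 1131 CPM in EtOH_ATGLi and 820 to 1339 CPM in EtOH_CON. Of 12 macrophage markers, 1 rose and 6 fell on atglistatin and 1 rose and 7 fell on the control diet. Their summed level was 77.8 to 283 CPM in Cort_ATGLi and 80.5 to 152 CPM in Cort_CON, against 103 to 159 CPM in EtOH_ATGLi and 104 to 190.0 CPM in EtOH_CON. Of 7 tendon markers, 1 rose and 6 fell on atglistatin (median log2 fold change -1.85) and 1 rose and 5 fell on the control diet (median -1.55). Their summed level was 82.7 to 149 CPM in Cort_ATGLi and 89.7 to 233 CPM in Cort_CON, against 211 to 513 CPM in EtOH_ATGLi and 234 to 475 CPM in EtOH_CON. Of 9 adipocyte markers, 2 rose and 1 fell on atglistatin and 1 rose and 3 fell on the control diet, with a summed level of 674 to 2415 CPM in Cort_ATGLi and 486 to 4246 CPM in Cort_CON, against 2513 to 3714 CPM in EtOH_ATGLi and 3020 to 4417 CPM in EtOH_CON. Of 10 endothelial markers, 1 rose and 5 fell on atglistatin and 1 rose and 6 fell on the control diet. Of 8 smooth muscle and pericyte markers, 3 fell on atglistatin and 6 on the control diet, and of 8 Schwann cell markers, 0 and 3. Of the 10 fibre markers, 4 rose and 1 fell on atglistatin and 5 rose and 1 fell on the control diet. The part of these shifts in the differences of the 9 genes was not tested.

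Averaged over both diets, a contrast added after the effects on each diet had been seen, 8 of the 9 genes were called. Myod1, Myog, Myf6, Cdh15 and Sdc4 rose, and Mef2c, Mef2d and Pax7 fell, where 49.5% of all tested genes were called, 24.4% higher and 25.1% lower. The average log2 fold change was 0.52 for Myod1 (SE 0.12), 0.79 for Myog (SE 0.24) and 0.44 for Myf6 (SE 0.11), with edgeR adjusted p of 0.000247, 0.00506 and 0.000591. It was -0.55 for Mef2c (SE 0.09), -0.86 for Pax7 (SE 0.19), 0.87 for Cdh15 (SE 0.09) and 0.83 for Sdc4 (SE 0.12), with edgeR adjusted p of 1.77e-06, 0.00012, 3.57e-12 and 4.26e-08. Mef2d fell by 0.14 (SE 0.05, edgeR adjusted p = 0.033), and this call was lost without EtOH_CON p01 (-0.10, edgeR adjusted p = 0.086) or without EtOH_ATGLi p08 (-0.13, edgeR adjusted p = 0.053). Mef2a, at 0.09 (95% interval -0.06 to 0.23), was not called.

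Atglistatin changed none of the 9 genes past the threshold. In EtOH_ATGLi against EtOH_CON, 0 of 9 were called by edgeR, 0 had an unadjusted p under 0.05, and DESeq2 and limma voom called 0, where edgeR called 0.0238% of all tested genes, 0.0159% higher and 0.00794% lower. The groups overlapped for each of the 9, and did not overlap for 0.0318% of all tested genes. The log2 fold changes of the 9 lay between -0.33 and 0.23, and their 95% intervals between -1.06 and 0.52. In Cort_ATGLi against Cort_CON, 0 of 9 were called by edgeR, DESeq2 and limma voom, where edgeR called 1.6% of all tested genes, 0.667% higher and 0.929% lower, and 2 of 9 had an unadjusted p under 0.05. The groups overlapped for each of the 9, and did not overlap for 0.00794% of all tested genes. The 2 were Sdc4, with medians of 12.9 CPM in Cort_ATGLi and 18.6 CPM in Cort_CON (log2 fold change -0.45, SE 0.15, p = 0.00336, edgeR adjusted p = 0.11), and Cdh15, with medians of 18.4 CPM in Cort_ATGLi and 15.5 CPM in Cort_CON (log2 fold change 0.30, SE 0.11, p = 0.00939, edgeR adjusted p = 0.187). For Sdc4, 13 of 14 Cort_ATGLi libraries lay below the Cort_CON mean, and for Cdh15, 12 of 14 lay above it. Single libraries moved both values. Sdc4 passed without Cort_ATGLi p41 (-0.57, edgeR adjusted p = 0.0137). Cdh15 passed without Cort_CON p45 (0.37, edgeR adjusted p = 0.0409), but was 0.18 without Cort_ATGLi p41 (edgeR adjusted p = 0.437).

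The effect of corticosterone was not shown to differ between diets for any of the 9. In the interaction, 0 of 9 were called by edgeR, DESeq2 and limma voom, 0 had an unadjusted p under 0.05, and edgeR called 0.0397% of all tested genes, 0.0238% higher and 0.0159% lower. The differences lay between -0.35 and 0.24, with 95% intervals between -0.81 and 1.12. Among Cort_CON mice, the 9 diabetic against the 5 nondiabetic differed by log2 fold changes between -0.28 and 0.15, with 95% intervals between -0.88 and 1.00. There, 0 of 9 were called by edgeR, DESeq2 and limma voom, 0 had an unadjusted p under 0.05, and 0% of all tested genes were called by edgeR. Intervals of this width do not show that the groups were alike.

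The genes around these factors were read as lists, each with its counts of called genes. The lists were chosen with earlier results of these data known, so their counts describe the lists and are not an independent test. Of all tested genes, edgeR called 15% higher and 15% lower on atglistatin, and 18.9% higher and 19.5% lower on the control diet. Of 14 measured targets of MyoD and myogenin, 10 rose and 0 fell on atglistatin (median log2 fold change 0.63) and 9 rose and 0 fell on the control diet (median 0.57). The members with the smallest p were not all genes of muscle building. Cdkn1a, which encodes the cell cycle inhibitor p21, rose by 2.64 on atglistatin (SE 0.30, edgeR adjusted p = 1.44e-09) and 4.11 on the control diet (SE 0.32, edgeR adjusted p = 1.95e-14). Trim63 and Fbxo32, the ubiquitin ligases MuRF1 and atrogin-1 of muscle wasting, rose by 1.88 and 1.21 on atglistatin (SE 0.24 and 0.18, edgeR adjusted p = 3.4e-08 and 3.73e-07) and by 1.97 and 1.03 on the control diet (edgeR adjusted p = 6.32e-09 and 4.49e-06). Des, the intermediate filament desmin, rose by 0.79 on atglistatin (SE 0.12, edgeR adjusted p = 3.11e-07) and 1.15 on the control diet (SE 0.12, edgeR adjusted p = 1.04e-11). Des is also counted in the list of other satellite cell and myoblast genes. Chrnb1, a subunit of the acetylcholine receptor, rose by 0.70 on the control diet (SE 0.12, edgeR adjusted p = 2.44e-06). On atglistatin Chrnb1 rose by 0.61 to 0.72 in fits that each left out 1 library (edgeR adjusted p = 1.98e-06 to 3.24e-05). Trim63 and Fbxo32 are also textbook genes that glucocorticoids raise in muscle.

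**Figure D3:**
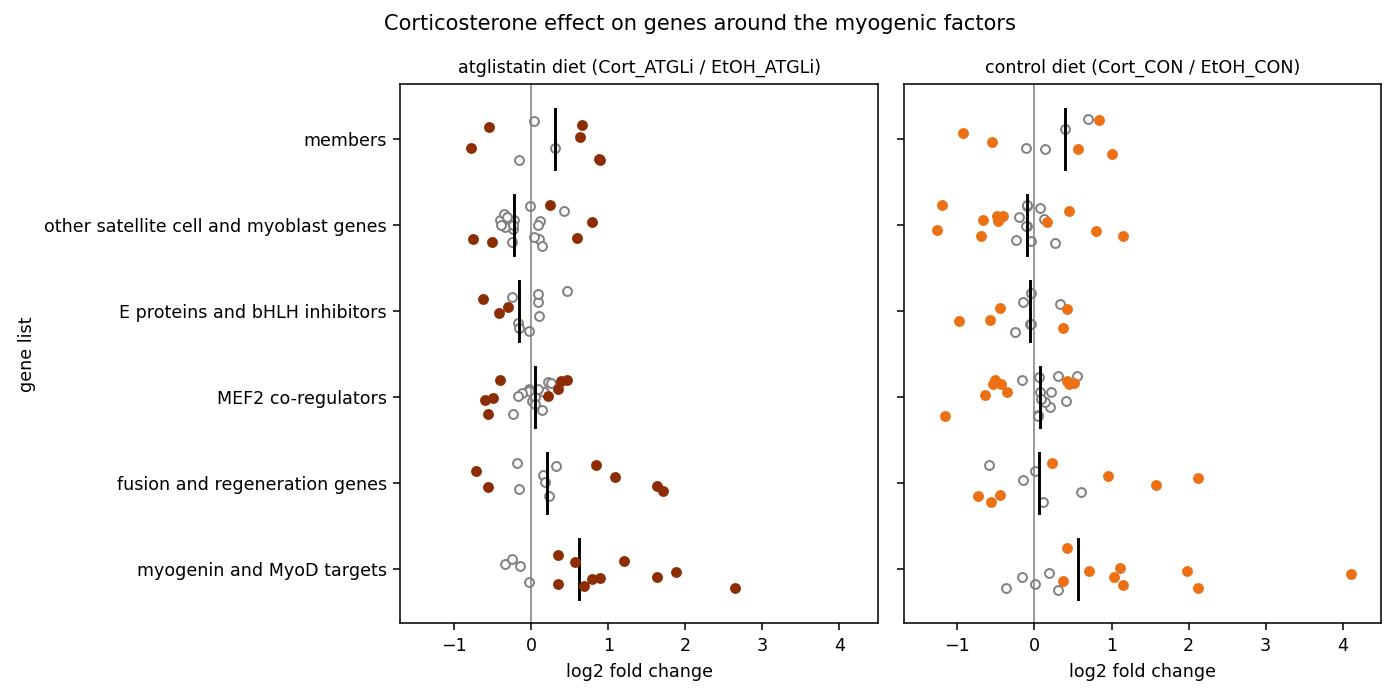
Log2 fold change of corticosterone over vehicle for each measured gene of 6 lists on the atglistatin diet (left) and the control diet (right); filled points passed an edgeR adjusted p of 0.05, and black bars are list medians. The targets of MyoD and myogenin had the highest median on both diets, 0.63 and 0.57, and no called gene below 0. The lists were chosen with earlier results of these data known.

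Other satellite cell and myoblast genes did not move one way. Of 21 measured, 3 rose and 2 fell on atglistatin (median -0.23), where 15% of all tested genes rose and 15% fell. On the control diet 4 rose and 7 fell (median -0.10), where 18.9% of all tested genes rose and 19.5% fell. Vcam1, an adhesion molecule of satellite cells and of vessels, fell by 0.75 on atglistatin (SE 0.20, edgeR adjusted p = 0.00331) and by 1.20 on the control diet (SE 0.20, edgeR adjusted p = 2.22e-06). Itga7, the laminin-binding integrin of muscle, rose by 0.59 on atglistatin (SE 0.13, edgeR adjusted p = 0.000195) and 0.45 on the control diet (SE 0.12, edgeR adjusted p = 0.00321). Cd82, a tetraspanin, fell by 1.26 on the control diet (SE 0.22, edgeR adjusted p = 4.08e-06), was -0.23 on atglistatin (SE 0.22, edgeR adjusted p = 0.46), and did not pass the interaction test (1.03, edgeR adjusted p = 0.505). Chrdl2 rose by 0.80 on the control diet (SE 0.22, edgeR adjusted p = 0.00231). On atglistatin Chrdl2 was 0.33 to 0.53 in fits that each left out 1 library, and was not called (edgeR adjusted p = 0.0682 to 0.267).

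The list of partners and inhibitors of the helix-loop-helix factors was short, so its counts rest on few genes. Of 11 measured, 0 rose and 3 fell on atglistatin (median -0.16), where 15% of all tested genes rose and 15% fell. On the control diet 2 rose and 3 fell (median -0.06), where 18.9% of all tested genes rose and 19.5% fell. Bhlhe41, a repressor, fell by 0.62 on atglistatin (SE 0.12, edgeR adjusted p = 3.62e-05) and by 0.99 on the control diet (SE 0.12, edgeR adjusted p = 1.34e-09). Id2, which ties up E proteins, fell by 0.41 on atglistatin (SE 0.14, edgeR adjusted p = 0.017) and by 0.57 on the control diet (SE 0.14, edgeR adjusted p = 0.000565), while Id3 rose by 0.38 on the control diet (SE 0.11, edgeR adjusted p = 0.00524). The Id2 call on atglistatin was lost without EtOH_ATGLi p13 (-0.31, edgeR adjusted p = 0.0852), and without that library the list had 1 called gene in place of 3. Bhlhe40, a relative of Bhlhe41, fell by 0.30 on atglistatin (SE 0.11, edgeR adjusted p = 0.0316), a call lost without p06, p08 or p13 of EtOH_ATGLi (-0.29, -0.25 and -0.29; edgeR adjusted p = 0.0538, 0.0893 and 0.0515) or p17 or p41 of Cort_ATGLi (-0.27 and -0.26; edgeR adjusted p = 0.0547 and 0.0581). Tcf3, an E protein, fell by 0.45 on the control diet (SE 0.14, edgeR adjusted p = 0.00678). On the other diet Id3, Tcf3 and Bhlhe40 were not called in fits that each left out 1 library. There, on atglistatin, Id3 was 0.05 to 0.18 and Tcf3 -0.24 to -0.12 (edgeR adjusted p of at least 0.217 and 0.167). Bhlhe40 was -0.10 to -0.016 on the control diet (edgeR adjusted p of at least 0.506).

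The regulators of MEF2 were called in both directions, as all tested genes were. Of 21 measured, 4 rose and 4 fell on atglistatin (median 0.04), where 15% of all tested genes rose and 15% fell. On the control diet 3 rose and 6 fell (median 0.07), where 18.9% of all tested genes rose and 19.5% fell. The class IIa histone deacetylases bind MEF2 factors and silence their targets, and they moved apart: Hdac4 fell by 0.49 on atglistatin (SE 0.11, edgeR adjusted p = 0.000211) and by 0.51 on the control diet (SE 0.11, edgeR adjusted p = 8.36e-05), while Hdac5 rose by 0.35 (SE 0.08, edgeR adjusted p = 0.000417) and 0.42 (SE 0.08, edgeR adjusted p = 2.28e-05). Hdac9 fell by 1.17 on the control diet (SE 0.18, edgeR adjusted p = 3.36e-07). On atglistatin Hdac9 was -0.65 to -0.51 in fits that each left out 1 library, and was called in each (edgeR adjusted p = 0.00309 to 0.0278). Camk2a, a calcium-dependent kinase, fell by 0.41 on atglistatin (SE 0.09, edgeR adjusted p = 0.000246). On the control diet Camk2a was -0.41 to -0.33 in such fits, and was called in each (edgeR adjusted p = 6.51e-05 to 0.00309). Mapk14, the kinase p38 alpha that activates MEF2 factors, rose by 0.39 on atglistatin (SE 0.06, edgeR adjusted p = 3.41e-07) and 0.51 on the control diet (SE 0.06, edgeR adjusted p = 2.57e-10).

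Of 12 measured genes of fusion and regeneration, 4 rose and 2 fell on atglistatin, where 15% of all tested genes rose and 15% fell. On the control diet 4 rose and 3 fell, where 18.9% of all tested genes rose and 19.5% fell. The fusion genes Mymk and Mymx were not tested. Myh3, the embryonic myosin heavy chain of new fibres, ran from 1.24 through a median of 2.49 to 14.4 CPM in Cort_ATGLi, against 0.435, 0.920 and 2.20 CPM in EtOH_ATGLi. In Cort_CON it ran from 0.815 through 2.36 to 6.41 CPM, against 0, 0.613 and 1.60 CPM in EtOH_CON. Myh3 rose by 1.63 on atglistatin (SE 0.38, edgeR adjusted p = 0.00072) and 2.12 on the control diet (SE 0.41, edgeR adjusted p = 4.42e-05), at levels of a few CPM. Ankrd1, a stress-responsive protein of the sarcomere, rose by 1.71 on atglistatin (SE 0.41, edgeR adjusted p = 0.00107), and by 1.02 without Cort_ATGLi p41 (edgeR adjusted p = 0.00636). On the control diet Ankrd1 rose by 1.31 to 1.65 in fits that each left out 1 library (edgeR adjusted p = 0.00111 to 0.00616). Csrp3, the muscle LIM protein, rose by 0.95 on the control diet (SE 0.21, edgeR adjusted p = 0.00033). On atglistatin Csrp3 rose by 0.70 to 0.89 in such fits (edgeR adjusted p = 0.000857 to 0.00484). Dcn, the matrix proteoglycan decorin, fell by 0.57 on both diets (SE 0.09 on each, edgeR adjusted p = 3.7e-06 and 2.32e-06), and Myof, the membrane repair protein myoferlin, by 0.72 on atglistatin and 0.73 on the control diet (SE 0.16 on each, edgeR adjusted p = 0.000294 and 0.000161). In Cort_ATGLi against Cort_CON, 3 genes of these lists were called and are named after their values were seen. They were 1 of 21 other satellite cell and myoblast genes, 1 of 12 fusion and regeneration genes and 1 of 14 targets. Of the 11 E proteins and inhibitors and the 21 MEF2 regulators, 0 were called. There edgeR called 1.6% of all tested genes, 0.667% higher and 0.929% lower. Fgfr1, a growth factor receptor, was higher in Cort_ATGLi (0.36, edgeR adjusted p = 0.0156), as was the transcription factor Nfatc2 (0.49, edgeR adjusted p = 0.0495), and Cdkn1a was lower (-0.97, edgeR adjusted p = 0.0264).

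Within groups, the 9 genes were compared across the 48 libraries as deviations from the group mean. That step removes differences between group means. It leaves any differences between mice of a group, such as between diabetic and nondiabetic Cort_CON mice. Of 36 pairs, 8 passed both Pearson's and Spearman's permutation tests after adjustment over the pairs, 3 positive and 5 negative. Myf6 and Mef2c varied in opposite directions (r = -0.59, rho = -0.60, adjusted permutation p = 0.00072 and 0.00036), as did Myog and Mef2c (r = -0.58, rho = -0.44, adjusted permutation p = 0.00072 and 0.0337) and Mef2c and Mef2d (r = -0.62, rho = -0.50, adjusted permutation p = 0.00072 and 0.0133). Without the 2 libraries farthest from the median of the first gene of each pair, r was -0.59, -0.57 and -0.48. The others that passed were Myod1 with Mef2a (r = -0.41), Mef2a with Mef2d (r = -0.40), Mef2a with Pax7 (r = 0.33), Mef2a with Sdc4 (r = 0.38) and Myf6 with Sdc4 (r = 0.46).

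The number of pairs that passed was lower without p01, p41 and p45. Without these 3 libraries, 1 of 36 pairs passed both tests, Myf6 with Mef2c (r = -0.55, rho = -0.56, adjusted permutation p = 0.00648 and 0.00468, 45 libraries). Myog with Mef2c then had r = -0.36 and rho = -0.36 (adjusted permutation p = 0.107 and 0.0874), and Mef2c with Mef2d r = -0.44 and rho = -0.39 (adjusted permutation p = 0.0307 and 0.0668). Mef2a with Mef2d had r = -0.30 and Mef2a with Sdc4 r = 0.28. The value of r was close to that over all libraries for Myod1 with Mef2a (r = -0.46), Mef2a with Pax7 (r = 0.35) and Myf6 with Sdc4 (r = 0.45), and each of these had an adjusted permutation p of 0.0668 for rho. The genes of a library share its scaling and depth.

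**Figure D4:**
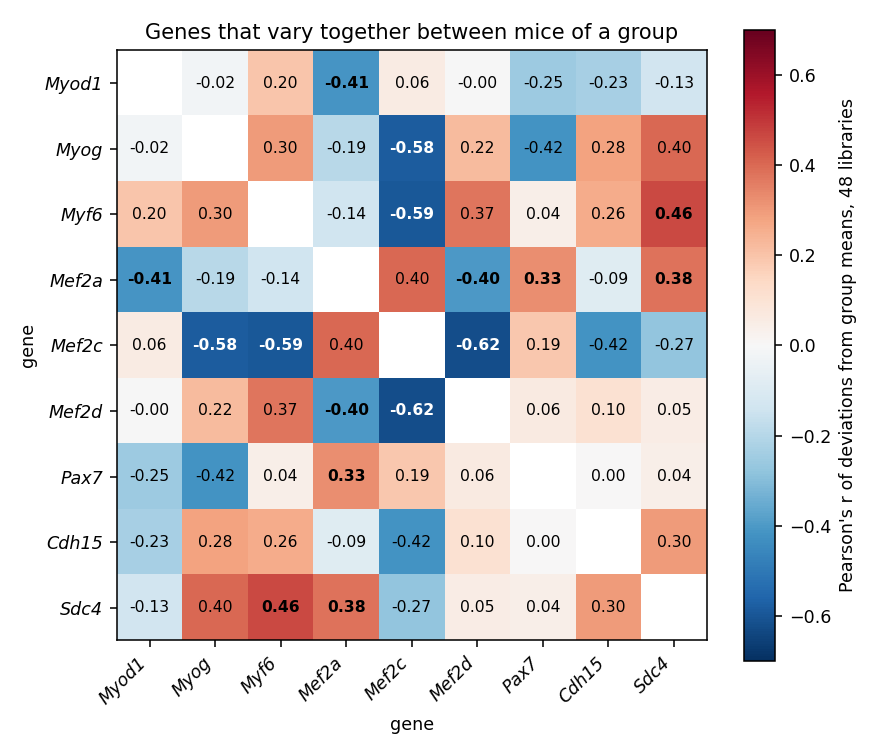
Pearson's r between the 9 genes over 48 libraries, computed on log2 CPM minus the group mean; bold values passed both permutation tests after adjustment over 36 pairs. The strongest values were negative and belonged to Mef2c, with -0.62 against Mef2d, -0.59 against Myf6 and -0.58 against Myog.

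**Figure D5:**
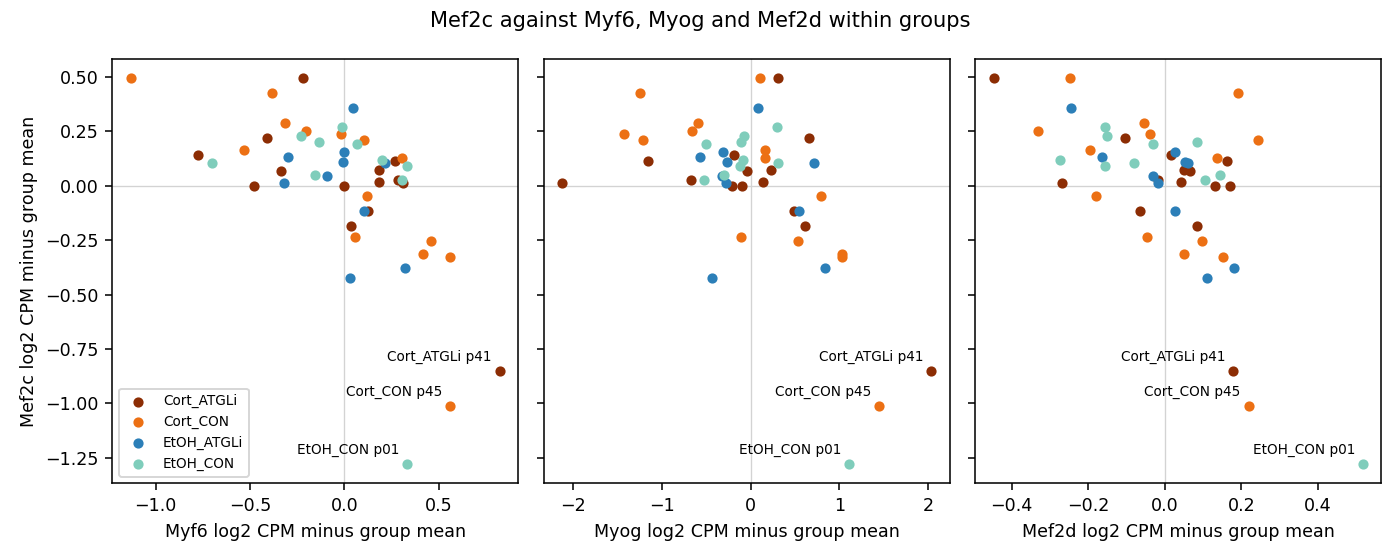
Mef2c against Myf6 (left), Myog (middle) and Mef2d (right) in each of the 48 libraries, each as log2 CPM minus the group mean and coloured by group. The libraries Cort_ATGLi p41, Cort_CON p45 and EtOH_CON p01 lay apart at low Mef2c, and without them r was -0.55, -0.36 and -0.44.

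Over the same deviations, the genes most like each of the 9 were sought among the 7415 genes averaging 5 CPM or more. These r values are descriptions over 48 libraries, whose genes share scaling and depth. Each is the highest or next highest of those compared, and none was computed again without p01, p41 and p45. Spearman's rho of the same pairs ran from 0.43 for Pax7 with Dop1b to 0.88 for Mef2a with G3bp2. Mef2c was most like Nexn, which encodes the sarcomere protein nexilin (r = 0.90, rho = 0.75), and the transcription factor Maf (r = 0.84, rho = 0.72). Mef2a was most like G3bp2 (r = 0.90) and Fxr1 (r = 0.89), both RNA-binding proteins, and Mef2d like the topoisomerase Top2b (r = 0.86) and the splicing factor Sf1 (r = 0.84). Values were lower for Cdh15 with Arl8b and Zpr1 (r = 0.78 each), Myog with Sumo3 (r = 0.76) and Tuba8 (r = 0.73), Sdc4 with Psmd11 and Lrrc58 (r = 0.74 each) and Myf6 with Skiv2l (r = 0.70) and Slc20a2 (r = 0.69). They were lowest for Myod1 with Slc9a2 (r = 0.65) and Rdh14 (r = 0.61) and for Pax7 with Akap6 (r = 0.63) and Dop1b (r = 0.58).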

How the data were processed

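RNA was measured in 48 libraries of mouse gastrocnemius. Per the labels' protocols, Lexogen QuantSeq libraries were read forward for 50 bp; such kits read near the 3′ ends of transcripts. The deposited table holds raw counts per gene, whole numbers that the authors had not normalized. Per the submitters' processing notes, which name DESeq2 1.24.0 and R 3.6.1, the genome was GRCm38. Aligner, counter, strand setting and gene annotation: not given in the sources used here. Normalized values by the authors were left out. Counts were even in 47 of 48 libraries and 49.6% odd in EtOH_ATGLi p13, for a reason that is not recorded, so tests were repeated on halved counts.

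The filter filterByExpr (count of 10, total of 15, by group) removed 1533 of 14125 genes. edgeR 4.0.16 in R 4.3.3 fitted all 48 libraries with TMM scaling and its robust quasi-likelihood test, two-sided, with Benjamini-Hochberg adjustment over 12592 genes and a threshold of 0.05. Standard errors and 95% intervals were derived from that test, and log2 CPM used a prior count of 2. Alternatives were DESeq2 1.42.0, limma 3.58.1 (voom), other scalings, no filter, halved counts, only the groups compared, nondiabetic mice only, and leaving out each library. The fit without p01, p41 and p45, the average over diets and the unblocked fit on shared numbers were chosen after seeing the data. Correlations used 100000 permutations within groups in NumPy 2.4.6, and the lowest p they can give is 1e-05. The chi-square per degree of freedom between libraries of a group was at least 3.94 over 272 pairs, so none were counted as 1. On simulated data for Cort_CON against EtOH_CON with 12592 genes, the test recovered 32% of genes changed by 0.4 on the log2 scale, 66% of those changed by 0.6 and 76% of those changed by 0.9, and called 0.0968% of unchanged genes. The simulation changed only 50 genes at each size, far fewer than the 4838 called in the data for that comparison. The adjustment is stricter where few genes change, so these shares do not give the power of the real comparison. Gene positions are those of GENCODE M21. Counts are reads, not independent molecules.

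The 9 genes and the other lists were chosen with earlier results of these data known. From each other list, up to 4 genes with the smallest p among those past the threshold were named in each corticosterone comparison, with their values on the other diet in places; Mymk, Mymx, Calcr and Megf10 were named as not tested. A gene that this rule also takes in is not reported here.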

Additional observations from a re-analysis of the deposited data

Results flagged for a closer look

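Of 36 combinations of gene and group (Cort_CON split by disease state) tested for a sample far from the others of its group, 7 had one by Dixon's ratio of the gap to the range; chance gives about 1 in 20. Library p01 of EtOH_CON accounted for 5: it was the highest for Myog at 8.145 CPM (the next was 4.599) and for Mef2d at 237.3 CPM (183.1), and the lowest for Mef2a at 45.93 CPM (74.71), Mef2c at 449.3 CPM (1110) and Sdc4 at 4.54 CPM (8.472). The same library had the lowest mean correlation with its group. Cdh15 stood at 25.28 CPM in the diabetic Cort_CON mouse p45, with the next at 18.69 CPM, and Pax7 at 3.04 CPM in the nondiabetic Cort_CON mouse p49, with the next at 1.047 CPM. Cort_ATGLi has 14 mice and is outside the sizes tested, so p41 was not tested there.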

How the results depend on the processing

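Of the 9 genes, the number called stayed within 1.5 times of the reported count in all alternatives for Cort_ATGLi against EtOH_ATGLi (5 to 6 without 1 library), Cort_CON against EtOH_CON (5 to 6) and the average over diets (7 to 8), and stayed at 0 in EtOH_ATGLi against EtOH_CON, the interaction and disease state. In Cort_ATGLi against Cort_CON the count was 0 to 1 without 1 library, and 1 without p01 and p41 or without p01, p41 and p45, by Sdc4 (-0.56 and -0.49, edgeR adjusted p = 0.00763 and 0.0092). Pairs that varied together were 8 with a prior count of 0.5 and 1 without those 3 libraries. The sign turned for Mef2a in Cort_ATGLi against EtOH_ATGLi under upper-quartile scaling (-0.0029) and without 1 library (-0.015 to 0.069), and for the Myog interaction without p01 and p41 (-0.32), without p01, p41 and p45 (-0.15) and without 1 library (-0.13 to 0.34); neither was called. The Myog call on atglistatin was also lost with limma voom (0.71, adjusted p = 0.151), upper-quartile scaling (adjusted p = 0.0569), no filter (adjusted p = 0.0524) and only the groups compared (adjusted p = 0.0534), all but the first by edgeR; Mef2d on atglistatin passed under upper-quartile scaling (-0.20, edgeR adjusted p = 0.0442), and Myod1 on the control diet in nondiabetic mice (0.57, edgeR adjusted p = 0.0321). In nondiabetic mice Itga7 (0.32), Chrdl2 (0.39), Tcf3 (-0.41), Id3 (0.26), Camk2a (-0.27) and Ankrd1 (1.09) were not called on the control diet. The causes were not tested.

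With diabetic mice left out, the called genes on the control diet were 6 in place of 11 for other satellite cell genes and 3 in place of 5 for E proteins and inhibitors, and 2952 in place of 4838 over all genes. All-gene counts moved by over 1.5 times in EtOH_ATGLi against EtOH_CON (3; 22 with DESeq2, 30 with limma voom, 23 with halved counts, 38 with only the groups compared, 12 without p01, p41 and p45, 1 to 21 without 1 library), in Cort_ATGLi against Cort_CON (201; 78 with only the groups compared, 402 without those 3, 125 to 354 without 1 library) and in the interaction (5; 8 with DESeq2, without p01 and p41 or in nondiabetic mice, 12 without p01, p41 and p45, 2 to 7 without 1 library).

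Groups share a few replicate numbers. Libraries with the same number showed little shared deviation (correlations of -0.06 to 0.155 over 6 pairs, 1 of which matched its own number best). Mice were therefore not treated as paired, though 6 pairs are too few to exclude pairing. With a replicate block on shared numbers only, 0 of the 9 were called in EtOH_ATGLi against EtOH_CON (4 numbers; 21 genes in all) and 6 in Cort_ATGLi against EtOH_ATGLi (2 numbers, 1880 genes). Without the block on the same libraries these were 0 and 5 (0 and 1555 genes in all). In those 2 pairs, with the block and without it, Cd82 was 0.011 and 0.020 and Id3 was -0.41 and -0.44, turned in sign, Myf6 passed at 0.61 and 0.60, Myod1 was 1.31 (edgeR adjusted p = 3.64e-11) and 1.26 (edgeR adjusted p = 0.0726), and Pax7 was -0.66 in both and was not called. Called MEF2 regulators were 2 in both in place of 8, with Hdac4 (-0.30 and -0.31) and Hdac5 (0.02 and 0.03) lost; Vcam1, Itga7 and Myh3 were also lost in both. Called targets of MyoD and myogenin were 7 and 6 in place of 10, with Cdkn1a lost without the block, and called E proteins and inhibitors were 5 and 3. Values over 1.5 times larger in both were those of Sdc4, Id2, Dcn and Myof, and that of Ankrd1 was smaller (0.58 and 0.56). Depth limits Pax7 most, at 2 to 64 counts per library.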

Other observations

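In Cort_ATGLi the labels' insulin values spanned 2.19 to 35.9 (unit not given), and none of the 9 genes varied with them past the threshold. Over the 14 mice, with 9 relations tested, the smallest p was that of Myf6 (r = -0.521, permutation p = 0.0559, adjusted p = 0.503; rho = -0.437, permutation p = 0.12, adjusted p = 0.662), and without the 2 mice farthest from the median insulin its r was -0.467. Library p41, with the lowest insulin and the highest Myf6 level of the group (81.4 CPM), was not 1 of those 2, and r without it was not computed. The values of r ran from -0.521 for Myf6 to 0.21 for Mef2c.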
